A study of Saccharomyces cerevisiae with 28 samples.

Results

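Transcripts of the enzymes that build arginine, the branched-chain amino acids and the aromatic amino acids were followed in baker's yeast (Saccharomyces cerevisiae) fermenting at 0 to 50% sucrose. The set comprised 34 genes listed by symbol: 8 of the arginine branch, 12 of the branched-chain branch, 13 of the aromatic branch and GCN4, the transcription factor of general amino acid control. Each gene was read through its probe set on the array, and 33 of the 34, out of 5449 S. cerevisiae genes measured, had one. TRP1 was not analysed here, which leaves 12 aromatic genes. Each of the 33 genes had a single probe set, and no gene was lost to a filter on low values because none was applied.

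In yeast many enzymes of amino acid synthesis are transcribed together under general amino acid control, in which uncharged tRNA activates the kinase Gcn2, translation of GCN4 mRNA goes up, and the Gcn4 protein switches on its target genes. Each branch also has its own brake: arginine represses its branch through the ArgR/Mcm1 complex, Leu3 senses an intermediate of leucine synthesis, and the first aromatic enzymes are inhibited by their end products. In fermentation these pathways are also known for their link to aroma, because the breakdown of branched-chain and aromatic amino acids yields fusel alcohols.

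The samples were poly(A) RNA of 2 yeasts, which the labels call LS and HS without further description, harvested after 60 min of fermentation in a medium named LF with 0, 5, 10, 20, 30, 40 or 50% sucrose. Strain, genotype and what LS, HS and LF stand for are not given in the sources used here. Each of the 14 combinations had 2 replicate Affymetrix arrays, 28 in all, and the labels do not tell whether replicates were separate fermentations, so every p-value reflects array-to-array spread, which may be technical. Deposited values are ratios in which each of the 33 genes has a median of 1 over the 28 arrays, so they compare arrays, never genes. In bulk RNA a lower ratio cannot separate fewer expressing cells from less transcript per cell.

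The arrays also carry probe sets of the fission yeast S. pombe, which serve as a background because the samples are S. cerevisiae. On 6 arrays, replicate 2 of every LS group except that at 40%, the median S. pombe ratio was 1.51 to 13.7, against 0.119 to 0.994 on the other 22. Between the 2 replicates, the correlation over the 33 genes was -0.40 to 0.25 in these 6 groups, 0.83 in LS at 40% and -0.057 to 0.61 in the 7 HS groups (over all S. cerevisiae probe sets -0.22 to 0.50, then 0.87 and 0.47 to 0.72). The HS comparisons do not use these 6 arrays. LS results are given with and without them, where the fit without them takes the spread from the 7 HS pairs and the LS pair at 40% (8 residual degrees of freedom) and assumes that lone LS arrays vary alike. Differences are log2 differences ± SE from limma between a group (n = 2) and the mean of the 5, 10 and 20% groups of the same yeast, called the 5-20% baseline (n = 6). A gene was called at an adjusted p under 0.05 over 5498 probe sets. The comparisons of one yeast share that baseline, so their values are set side by side and not correlated.

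In HS, the medians of all 3 branches were at their lowest on the second array at 50% sucrose. Of the 33 genes 22 fell and none rose against the 5-20% baseline, in a comparison where 25.4% of all probe sets were called lower and 20.7% higher. The fall took in 7 of 8 arginine genes, 9 of 12 aromatic genes and 6 of 12 branched-chain genes. Median differences were -1.91, -1.88 and -1.46, against -0.13 over all probe sets. On both 50% arrays 27 of the 33 genes lay below all 6 baseline arrays (7 arginine, 9 branched-chain and 11 aromatic), a position held by 30.0% of all probe sets.

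The branch medians per array show how the 2 arrays at 50% compare. The arginine median was -1.26 and -1.65 on the log2 scale, against 0.31 to 0.94 on the baseline arrays. The branched-chain median was -0.46 and -1.46, against 0.24 to 0.87. The aromatic median was -0.83 and -1.43, against 0.22 to 0.65. Both 50% arrays were below the baseline in every branch, and the second replicate was lower than the first in all of them. The differences between branches were not tested. Without the second replicate at 50%, 16 genes were called. When the spread was estimated over all 28 arrays in 1 fit, which brings in the wide LS pairs, only ARG3, ORT1, ARO1, ARO2 and PHA2 were called lower, 5 of 33 against 7.06% of all probe sets. The median log2 ratio of the S. pombe probe sets differed by -0.48 between 50% and the baseline arrays, and its part in the result was not tested.

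**Figure D1:**
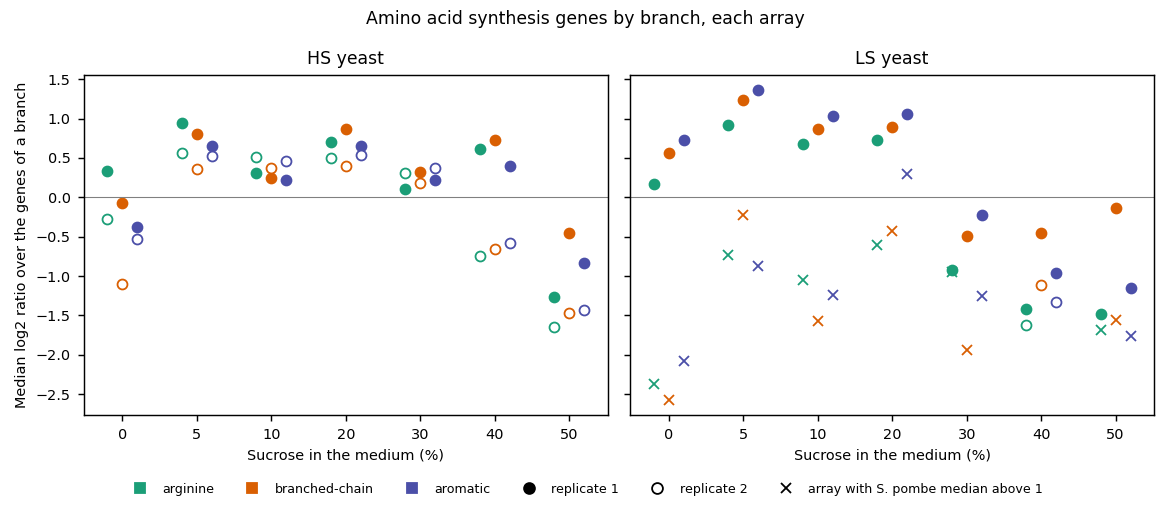
Median log2 ratio over the 8 arginine, 12 branched-chain and 12 aromatic genes (y axis) on each array, by sucrose concentration (x axis), with HS on the left and LS on the right. Filled circles are first replicates, open circles second replicates and crosses those 6 LS arrays whose S. pombe median exceeds 1. In HS both arrays at 50% lie below every baseline array in all 3 branches, and in LS the crosses lie apart from the circles below 30% sucrose.

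The arginine branch runs from glutamate to ornithine in the mitochondrion and from ornithine to arginine in the cytosol, and its genes fell at both ends. ARG1, argininosuccinate synthetase, had ratios of 0.246 and 0.279 at 50% sucrose against a baseline of 1.22 to 2.15 (median 1.49). The groups were far from overlapping, and the difference of -2.62 ± 0.55 (6.16-fold, adjusted p = 0.00266) was the largest of the branch. ARG4, the lyase that follows it, differed by -2.58 ± 0.41 (adjusted p = 0.000549). ARG3, the ornithine carbamoyltransferase that opens the cytosolic steps, stood at 0.437 and 0.416 against 1.26 to 1.91 (median 1.39). Its 2 arrays at 50% agreed closely and lay below the whole baseline (-1.82 ± 0.41, adjusted p = 0.00438).

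The mitochondrial steps moved by similar amounts. ARG2 makes the first intermediate, N-acetylglutamate, and differed by -1.91 ± 0.33 (adjusted p = 0.000837). ARG8, the acetylornithine aminotransferase, differed by -2.08 ± 0.38 (adjusted p = 0.00122), and ARG7, which recycles the acetyl group, by -1.81 ± 0.30 (adjusted p = 0.000658). ORT1, the carrier that exports ornithine from the mitochondrion, stood at 0.544 and 0.320 against 0.943 to 2.0 (median 1.73), with no overlap (-1.91 ± 0.38, adjusted p = 0.00206). The exception was CPA1, the small subunit of the carbamoyl phosphate synthetase that feeds this pathway and a gene known for control by arginine at the level of translation. CPA1 had ratios of 1.68 and 1.02 against a baseline of 0.873 to 1.85 (median 1.04). Both arrays lay within the baseline, and the difference of 0.22 ± 0.56 did not pass the test (adjusted p = 0.779).

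The branched-chain pathway makes isoleucine and valine with shared enzymes and splits off leucine from the valine route, and about as many of its genes passed the test as did not. Of the shared enzymes ILV5, the reductoisomerase, stood at 0.728 and 0.320 against 1.24 to 2.13 (median 1.43) and fell by 1.69 ± 0.43 (adjusted p = 0.00763). ILV3, the dehydratase of the next step, and ILV1, the threonine deaminase that commits carbon to isoleucine, differed by -1.73 ± 0.47 and -1.51 ± 0.38 and were called lower (adjusted p = 0.0114 and 0.00798). The acetolactate synthase of the first shared step was not called in either subunit. Its catalytic subunit gene ILV2 differed by -0.72 ± 0.35 (adjusted p = 0.121) and its regulatory subunit gene ILV6 by -1.51 ± 0.60 (adjusted p = 0.0587), although both had their 50% arrays below the baseline. Without the second 50% replicate ILV1, ILV3, ILV5, LEU3 and LEU9 lost their calls (adjusted p = 0.11 to 0.175), with differences of -1.10 to -0.82.

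On the leucine side the last specific enzyme moved most. LEU2, isopropylmalate dehydrogenase, had ratios of 0.514 and 0.289 at 50% against 1.59 to 2.58 (median 1.67) and fell by 2.28 ± 0.41 (4.87-fold, adjusted p = 0.00115). LEU1, the isomerase just before it, stood at 1.55 and 0.708 against 0.994 to 1.84 (median 1.23), and its difference of -0.33 ± 0.42 did not pass (adjusted p = 0.559). Of these consecutive steps LEU2 was below its baseline on both arrays and LEU1 overlapped it. LEU3, the regulator of leucine genes, stood at 0.696 and 0.428 against 0.898 to 1.47 (median 1.41) and was called lower (-1.24 ± 0.37, adjusted p = 0.017).

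Several steps are served by a pair of isozymes. LEU9 and LEU4, and likewise BAT1 and BAT2, had unlike values mainly on the second 50% array. The isopropylmalate synthase LEU9 had ratios of 0.730 and 0.209 at 50% against 0.998 to 1.5 (median 1.31) and was called lower (-1.72 ± 0.44, adjusted p = 0.00855). Its partner LEU4, the isozyme that leucine inhibits most, had 0.734 and 0.904 against 0.852 to 1.62 (median 0.987) and was not called (-0.45 ± 0.50, adjusted p = 0.491). Relative to their own usual levels LEU9 and LEU4 were nearly equal on the first 50% array and apart on the second. The mitochondrial aminotransferase gene BAT1 stood at 0.953 and 0.252 against 1.08 to 1.88 (median 1.11) (-1.42 ± 0.63, adjusted p = 0.0856), and the cytosolic BAT2 at 1.03 and 3.47 against 0.965 to 2.34 (median 1.54) (0.40 ± 0.47, adjusted p = 0.522). Neither was called, and the second BAT2 array was the highest of the 14 HS arrays for that gene.

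The third pair opens the aromatic pathway with DAHP synthase, in a form inhibited by phenylalanine (ARO3) and a form inhibited by tyrosine (ARO4). ARO4 had ratios of 0.470 and 0.232 at 50% against 1.31 to 2.36 (median 1.46) and fell by 2.31 ± 0.39 (4.97-fold, adjusted p = 0.000738). ARO3 had 0.870 and 0.429 against 1.13 to 1.58 (median 1.42) and differed by -1.18 ± 0.35 (adjusted p = 0.0163), a call lost without the second 50% replicate (adjusted p = 0.205). The log2 ratio of ARO4 to ARO3 was -0.89 on both arrays at 50% and -0.10 to 0.86 at baseline, with no overlap. An exact 2-sided permutation test of the 2 against 6 arrays gave p = 0.0714 for this shift of -1.13. In the form used, which doubles the p of the smaller tail, this is the smallest p that 2 against 6 arrays can give. For LEU9 to LEU4 the shift was -1.28 (exact permutation p = 0.214) and for BAT1 to BAT2 it was -1.81 (exact permutation p = 0.214). After adjustment over the 3 pairs each exact permutation p was 0.214. No shift could pass 0.05 in this form of the test with so few arrays, so the shifts are descriptions.

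**Figure D2:**
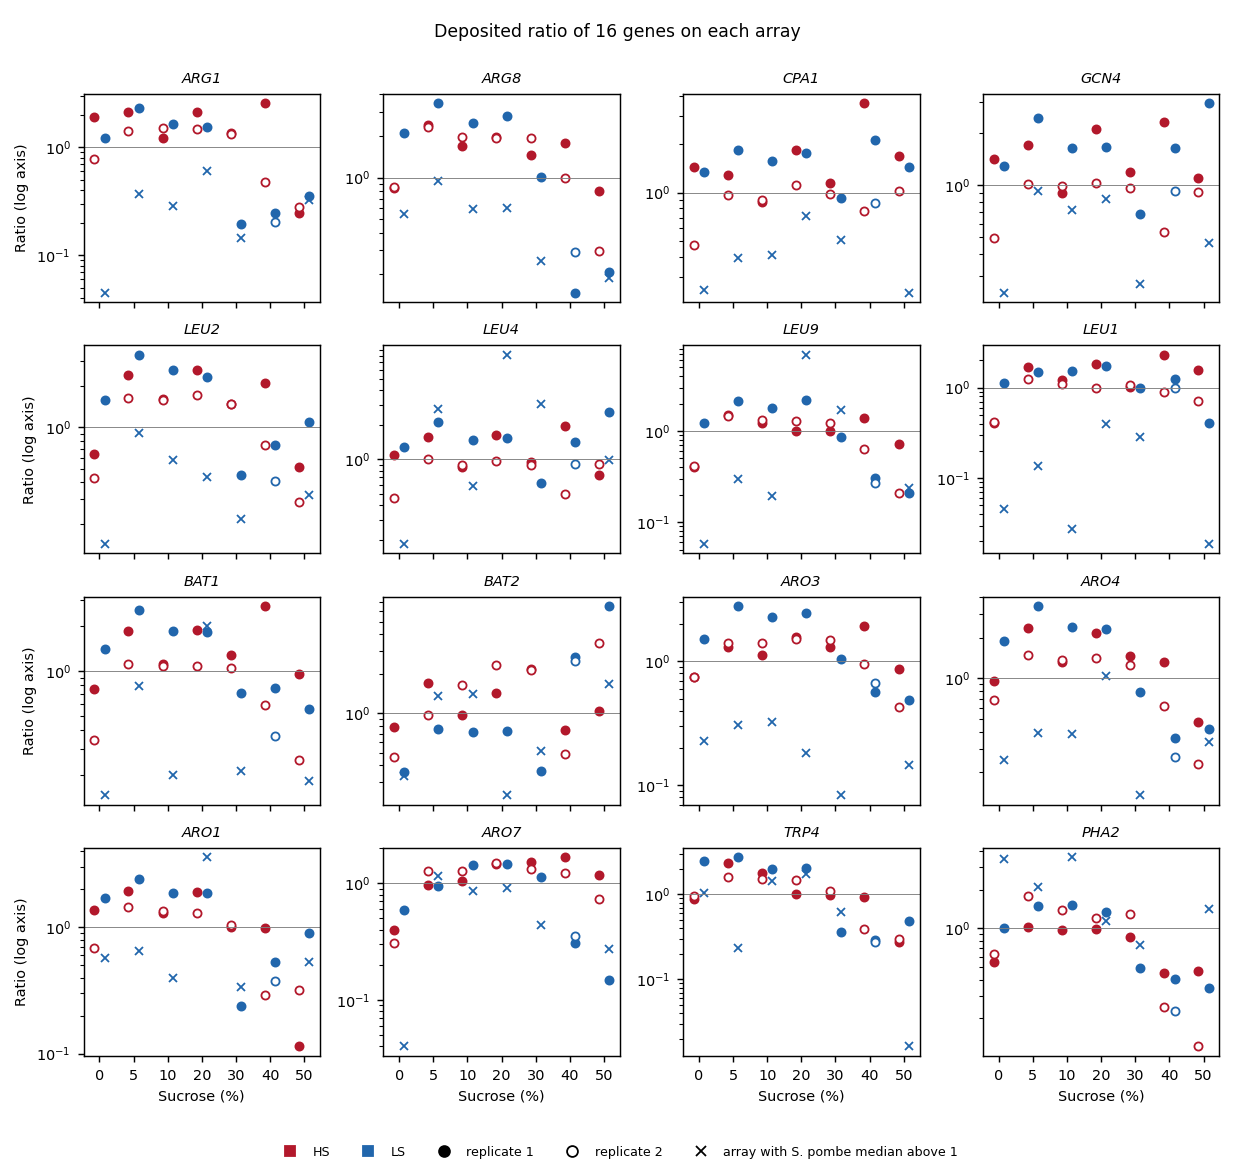
Deposited ratio (y axis, log scale) of 16 of the 33 genes on each array by sucrose concentration (x axis), HS in red and LS in blue, with filled circles for first replicates, open circles for second replicates and crosses for those 6 LS arrays whose S. pombe median exceeds 1. The red circles of ARG1, ARO1 and TRP4 at 50% lie below all red circles from 5 to 20%, those of CPA1, LEU4 and GCN4 overlap them, and the blue circles of BAT2 at 40 and 50% lie above those from 5 to 20%.

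Beyond DAHP synthase, ARO1 of the aromatic trunk and TRP4 of its tryptophan arm had the largest falls of the branch. ARO1, a single protein that catalyses the middle steps of the trunk, had ratios of 0.114 and 0.320 at 50% against a baseline of 1.30 to 1.95 (median 1.40). Its difference of -2.99 ± 0.51 (7.95-fold, adjusted p = 0.000792) was the largest of the 33 genes. ARO2, chorismate synthase, which completes the trunk, differed by -2.08 ± 0.32 (adjusted p = 0.000421). On the tryptophan arm TRP4, the anthranilate phosphoribosyltransferase, stood at 0.275 and 0.298 against 1.02 to 2.35 (median 1.57) and fell by 2.46 ± 0.35 (adjusted p = 0.000259, the lowest among the 33 genes). The anthranilate synthase genes TRP2 and TRP3 were also called lower, at -1.17 ± 0.29 and -1.68 ± 0.25 (adjusted p = 0.00676 and 0.000355). TRP5, tryptophan synthase, which closes the arm, was not called (-0.71 ± 0.40, adjusted p = 0.175).

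On the arm to phenylalanine and tyrosine the steps had unlike values. PHA2, prephenate dehydratase on the phenylalanine side, stood at 0.468 and 0.121 against 0.974 to 1.79 (median 1.11) and fell by 2.33 ± 0.48 (5.02-fold, adjusted p = 0.00251). TYR1, prephenate dehydrogenase on the tyrosine side, stood at 0.974 and 0.696 against 0.986 to 1.57 (median 1.20), and its difference of -0.56 ± 0.28 did not pass (adjusted p = 0.126). The arrays of TYR1 at 50% lay just below its baseline, those of PHA2 far below. ARO7, the chorismate mutase shared by both, had 1.18 and 0.731 against 0.959 to 1.48 (median 1.27) and was not called (-0.41 ± 0.29, adjusted p = 0.275). ARO8, the aminotransferase of the last step, had 0.556 and 0.208 against 1.20 to 1.73 (median 1.5) and fell by 2.13 ± 0.44 (adjusted p = 0.00239).

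GCN4 itself was not called. Its ratios in HS were 1.10 and 0.919 at 50% against 0.898 to 2.12 (median 1.02), which overlapped, with a difference of -0.28 ± 0.56 (adjusted p = 0.71). The measurement is of GCN4 mRNA, and this regulator is known to be controlled mainly at translation.

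**Figure D3:**
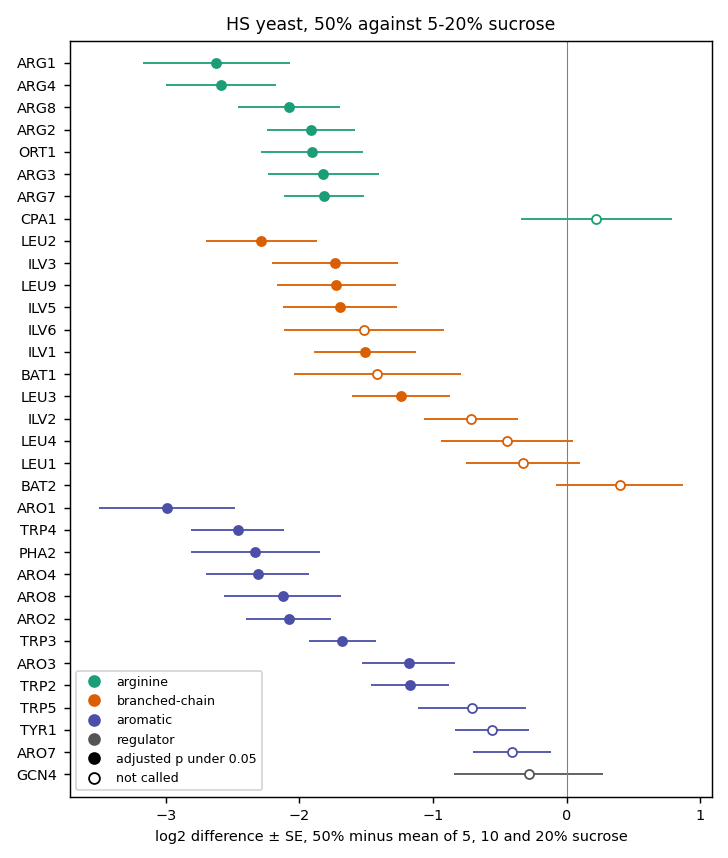
Log2 difference ± SE between 50% sucrose (n = 2 arrays) and the mean of the 5, 10 and 20% groups (n = 6) in HS for the 33 genes (x axis), coloured by branch, with filled circles for genes called at an adjusted p under 0.05. All 22 filled circles lie left of 0, from ARO1 at -2.99 to TRP2 at -1.17, while CPA1 and BAT2 lie right of 0 and are not called.

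Without sucrose 32 of the 33 differences from the 5-20% baseline in HS were also negative, and the differences between branches were not tested. At 0%, 8 of 33 genes were called lower and none higher, against 18.7% and 13.6% of all probe sets. The 8 were made up of 2 arginine, 3 branched-chain and 3 aromatic genes. Median differences were -0.45 (arginine), -1.06 (branched-chain) and -0.94 (aromatic), against -0.31 over all probe sets. Both 0% arrays lay below all baseline arrays for 3 of 8 arginine, 8 of 12 branched-chain and 10 of 12 aromatic genes, 21 of 33 in all, where 31.9% of all probe sets did. The count fell to 3 without either 0% array and to 0 with all 28 arrays in the fit.

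ARO7 and LEU1, which were not called at 50%, were among the 8. ARO7 had ratios of 0.399 and 0.309 at 0%, below its whole baseline of 0.959 to 1.48 (median 1.27), and fell by 1.81 ± 0.29 (3.51-fold, adjusted p = 0.00096). LEU1 stood at 0.402 and 0.421 at 0% and LEU9 at 0.399 and 0.410, each with 2 nearly equal arrays below the baseline (-1.67 ± 0.42 and -1.67 ± 0.44, adjusted p = 0.0116 and 0.0147). LEU2, at 0.645 and 0.426, had the largest difference (-1.84 ± 0.41, adjusted p = 0.00636). These 3 called leucine genes lay below their whole baseline on both arrays. LEU3 (1.256 and 0.953) and LEU4 (1.095 and 0.464) overlapped theirs and were not called (adjusted p = 0.639 and 0.345). In the arginine branch ORT1 stood at 0.478 and 0.796 (-1.34 ± 0.38, adjusted p = 0.0203) and ARG8 at 0.842 and 0.858 (-1.26 ± 0.38, adjusted p = 0.0264). ARG1, at 1.92 and 0.787, overlapped its baseline and was not called (-0.39 ± 0.55, adjusted p = 0.6). ARO2 (-1.75 ± 0.32, adjusted p = 0.0019) and TRP3 (-1.0 ± 0.25, adjusted p = 0.011) complete the 8. Of these, ARO2 and ARO7 kept an adjusted p under 0.05 without either 0% array, while ARG8, LEU1, LEU9 and TRP3 lost it without each (adjusted p = 0.0639 to 0.141), ORT1 without the first and LEU2 without the second (adjusted p = 0.202 and 0.0745). The median S. pombe log2 ratio differed by -1.18 between 0% and baseline, and its part in these calls was not tested.

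At 30% no gene of the 33 was called in HS, in a comparison where 0.782% of all probe sets were called lower. The 33 differences ran from -0.69 (ARO2) to 0.58 (BAT2). ARG1 stood at 1.36 and 1.34, LEU2 at 1.47 and 1.48 and ARO4 at 1.46 and 1.25. TYR1 stood at 1.56 and 1.39, BAT1 at 1.28 and 1.05 and ILV5 at 1.17 and 1.12. LEU2 and ILV5 lay just below their baselines on both arrays, and ARG1, ARO4, TYR1 and BAT1 overlapped theirs. Of the 33 differences 28 were negative, with a median of -0.26 against -0.05 over all probe sets. Both 30% arrays lay below the whole baseline for 6 of the 33 genes: LEU2, ILV5, ARG3, ARO1, ARO2 and TRP3. The share of all probe sets in that position was not computed at 30%.

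At 40% the 2 HS arrays disagreed. Over the 33 genes the median log2 ratio was 0.60 on the first array and -0.66 on the second, against 0.27 to 0.77 on the baseline arrays. ARG1, for example, stood at 2.55 and 0.479, BAT1 at 2.74 and 0.589 and CPA1 at 3.58 and 0.766. Only 3 of 33 genes were called lower and none higher, a share below the 11.3% of all probe sets called lower (8.49% were called higher). All 3 were aromatic. PHA2 stood at 0.449 and 0.243 and fell by 1.86 ± 0.48 (adjusted p = 0.0211), TRP4 stood at 0.936 and 0.388 and fell by 1.39 ± 0.35 (adjusted p = 0.0178), and TRP3 fell by 1.12 ± 0.25 (adjusted p = 0.0104). Both 40% arrays lay below the baseline for 7 of 33 genes, against 21.6% of all probe sets. Without the second 40% array 0 genes were called, without the first 7, and with all 28 arrays in the fit 0. The median S. pombe log2 ratio differed by -0.85 between 40% and baseline, and its part was not tested.

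**Figure D4:**
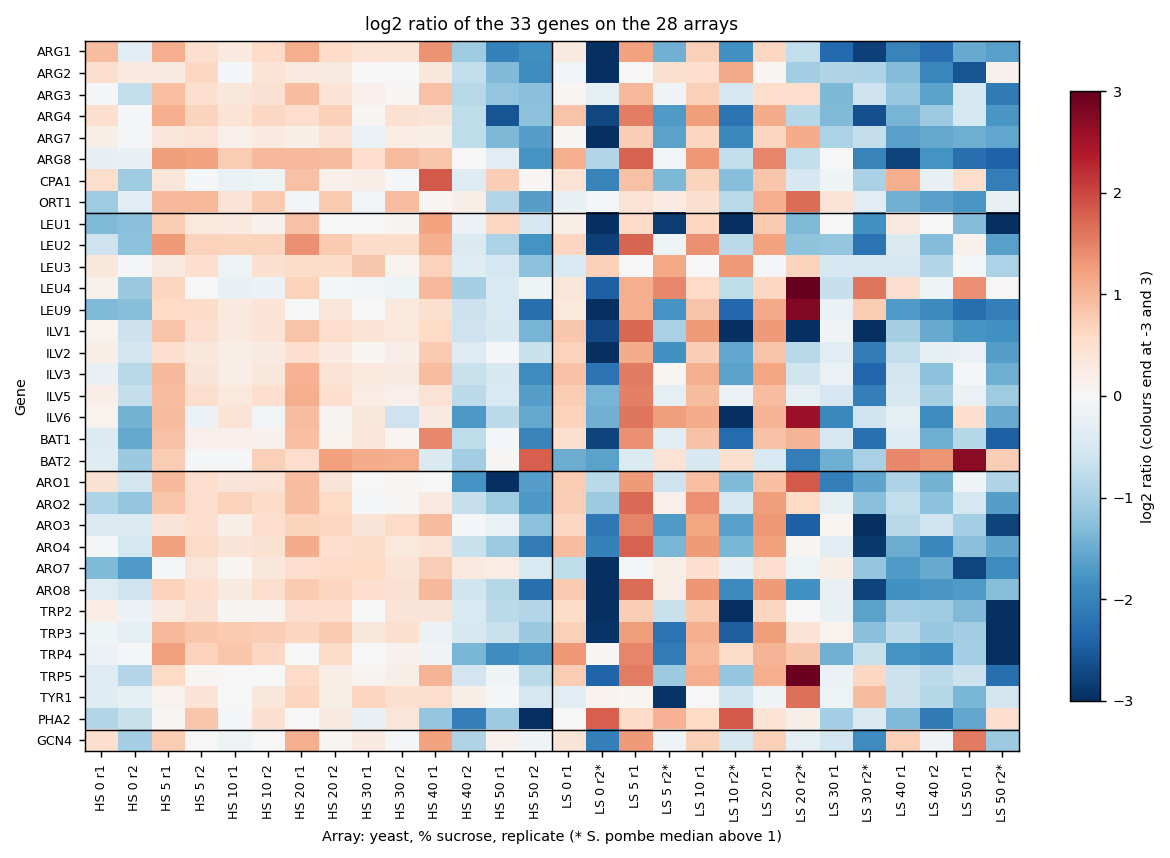
Log2 ratio (colour, ending at -3 and 3) of the 33 genes (rows, by branch with GCN4 last) on the 28 arrays (columns, by yeast, sucrose concentration and replicate), with an asterisk on those 6 LS arrays whose S. pombe median exceeds 1. Blue columns are seen in HS at 50% and on the second arrays at 0 and 40%, in LS at 40 and 50% and on most arrays with an asterisk.

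In LS, with all 14 arrays, no gene of the 33 passed the test at 0, 30, 40 or 50% sucrose, although differences were mostly negative. The medians for arginine, branched-chain and aromatic genes were -0.73, -1.06 and -0.87 at 0% and -1.22, -0.99 and -1.48 at 30%. At 40% they were -1.77, -1.17 and -1.70, and at 50% -1.43, -1.06 and -1.76. Calls were rare over the whole array too. Called lower were 0.0% of probe sets at 0%, 0.0182% at 30%, 0.818% at 40% and 1.29% at 50%, and called higher 3.35% at 40% and 3.97% at 50%. At an unadjusted p under 0.05 in limma, in either direction, the counts among the 33 genes were 1, 1, 5 and 7 at 0, 30, 40 and 50%. Among all 5498 probe sets the same counts were 106, 285, 1071 and 1213. The baseline itself was wide, as ARG1 shows: its first replicates at 5, 10 and 20% were 2.31, 1.63 and 1.53 and its second replicates 0.366, 0.285 and 0.604.

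Without the 6 arrays, many LS genes were lower from 30% sucrose upwards. At 30% 8 of 33 genes were called lower (4 arginine, 1 branched-chain and 3 aromatic) against 4.11% of all probe sets. At 40%, the LS group with 2 arrays in accord, 26 were called lower (7 of 8 arginine, 8 of 12 branched-chain and 11 of 12 aromatic), with BAT2 higher, against 31.9% of probe sets lower and 22.0% higher. At 50%, with 1 array, 20 were called lower (6, 3 and 11), with BAT2 higher, against 26.8% and 22.9%. Medians at 40% were -2.24, -1.92 and -2.17 for arginine, branched-chain and aromatic genes. At 50% they were -2.24, -1.32 and -2.13. The median S. pombe ratio was 0.994, 0.7035 and 0.4995 on the first replicates at 5, 10 and 20%. It was 0.212 on the array at 30%, 0.6955 and 0.219 at 40% and 0.887 at 50%. Its part in these results was not tested. At 0% no gene was called.

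Set against the 3 first replicates of the baseline alone, nearly all genes were lower at every other concentration, and so was much of the array. At 0% the first replicate lay below all 3 for 32 of 33 genes (43.9% of all probe sets), TRP4 being the exception. At 30% it did so for 32 genes (49.4%), with ARO7 the exception. At 40% both replicates did so for 30 genes (44.6%), where CPA1 and GCN4 overlapped and BAT2 was above. At 50% 29 did so (47.6%), where LEU3 overlapped and LEU4, BAT2 and GCN4 were above.

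In the LS arginine branch ARG1, ARG3, ARG4 and ARG7 were called lower at 30% without the 6 arrays, where no HS gene was called, but the difference between yeasts at 30% was not tested. ARG1 had first-replicate ratios of 2.31, 1.63 and 1.53 at 5, 10 and 20% and 0.197 at 30%, then 0.248 and 0.205 at 40% and 0.351 and 0.324 at 50%. Its differences without the 6 arrays were -3.19 ± 0.74 at 30% (adjusted p = 0.0289) and -2.99 ± 0.59 at 40% (adjusted p = 0.00115). All arrays at the 3 higher concentrations lay several-fold below the first replicates at the 3 lower ones. With all arrays the difference at 40% was -1.91 ± 1.19 (adjusted p = 0.424). ARG8 went from 3.43, 2.48 and 2.76 to 1.02 at 30% and to 0.147 and 0.287 at 40%, and its difference of -3.80 ± 0.44 (13.9-fold, adjusted p = 3.69e-05) was the largest of the 33 genes there. With all arrays it was -2.78 ± 0.99 (adjusted p = 0.14). ORT1 stood at 1.36, 1.40 and 2.12 on the baseline first replicates, at 1.32 at 30% and at 0.370 and 0.321 at 40% (-2.21 ± 0.41, adjusted p = 0.00076). ARG3 stood at 1.95, 1.65 and 1.45, then at 0.390 at 30% and at 0.458 and 0.328 at 40% (-2.11 ± 0.45, adjusted p = 0.00199). With all arrays the differences were -2.33 ± 1.19 (adjusted p = 1) for ARG1 at 30%, and at 40% -2.06 ± 0.74 (adjusted p = 0.143) for ORT1 and -1.72 ± 0.76 (adjusted p = 0.236) for ARG3. CPA1 was again not called, with 1.84, 1.58 and 1.77 on the baseline first replicates, 2.12 and 0.863 at 40% and 1.44 on the first array at 50%. Its differences without the 6 arrays were small beside their SE (-0.35 ± 0.65 and -0.26 ± 0.82, adjusted p = 0.668 and 0.813).

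Among LS branched-chain genes the isozymes LEU9 and LEU4 had different values, but the shift between them was not tested in LS. LEU9 had 2.14, 1.80 and 2.21 on the baseline first replicates, 0.306 and 0.267 at 40% and 0.208 at 50% (at 40% -2.84 ± 0.47, adjusted p = 0.000384, and with all arrays -2.10 ± 1.23, adjusted p = 0.385). LEU4 had 2.12, 1.48 and 1.54, then 1.41 and 0.905 at 40% and 2.59 at 50%, and was not called (-0.58 ± 0.54 and 0.62 ± 0.69, adjusted p = 0.387 and 0.477). LEU9 thus lay far below its baseline at both concentrations, and LEU4 just below it at 40% and above it at 50%. LEU1 stood at 1.5, 1.54 and 1.72, at 1.23 and 0.993 at 40% and at 0.405 on the first array at 50%. LEU2 stood at 3.34, 2.57 and 2.30, at 0.451 at 30%, at 0.745 and 0.405 at 40% and at 1.09 at 50%, lowest of these at 30% and on the second array at 40%. LEU3, with 0.996, 1.0 and 0.963 against 0.709 and 0.544 at 40%, also lay below but was not called (-0.67 ± 0.40, adjusted p = 0.175). ILV5 stood at 2.87, 1.94 and 1.89 and at 0.712 and 0.502 at 40% (-1.87 ± 0.46, adjusted p = 0.005), and with all arrays its difference was -1.18 ± 0.89 (adjusted p = 0.513).

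LS aromatic genes fell in 11 of 12 cases at 40 and at 50% without the 6 arrays. ARO4 stood at 3.44, 2.41 and 2.33 on the baseline first replicates and at 0.356 and 0.258 at 40% (-3.15 ± 0.42, 8.86-fold, adjusted p = 8.92e-05). ARO3 stood at 2.80, 2.27 and 2.48 and at 0.565 and 0.665 (-2.03 ± 0.37, adjusted p = 0.000692). ARO8 stood at 3.17, 2.51 and 2.41 and at 0.284 and 0.298 (-3.20 ± 0.47, adjusted p = 0.000149, and with all arrays -1.90 ± 1.29, adjusted p = 0.467). These 3 genes lay below the baseline first replicates at 40% on both arrays, ARO8 by the most. TRP4 stood at 2.74, 2.0 and 2.04, was already at 0.366 at 30% (-2.61 ± 0.47, adjusted p = 0.0109) and reached 0.290 and 0.276 at 40% (-2.98 ± 0.37, adjusted p = 5.32e-05). ARO1 was lowest at 30%, with 0.239 there against 2.42, 1.88 and 1.86, 0.529 and 0.373 at 40% and 0.908 at 50%. PHA2 stood at 1.5, 1.51 and 1.34 and at 0.401 and 0.230 at 40% (-2.25 ± 0.54, adjusted p = 0.00393). TYR1, at 1.05, 1.01 and 0.924 against 0.644 and 0.551, was the one aromatic gene not called at 40% (-0.74 ± 0.30, adjusted p = 0.0531), and ARO1 the one not called at 50% (-1.16 ± 0.70, adjusted p = 0.183). With all arrays the differences at 40% were -1.99 ± 1.14 (adjusted p = 0.377) for ARO4, -0.41 ± 1.37 (adjusted p = 0.904) for ARO3, -2.28 ± 1.20 (adjusted p = 0.328) for TRP4 and -2.50 ± 0.83 (adjusted p = 0.115) for PHA2. None of these passed. ARO7 had 0.955, 1.42 and 1.45, stayed at 1.13 at 30% and dropped to 0.308 and 0.351 at 40% and to 0.148 at 50% (-3.08 ± 0.39, adjusted p = 9.14e-05, and with all arrays -2.45 ± 0.96, adjusted p = 0.15). GCN4 stood at 2.43, 1.63 and 1.65 at 5, 10 and 20%, at 1.63 and 0.930 at 40% and at 2.96 at 50%, and was not called (-0.60 ± 0.61 and 0.66 ± 0.78, adjusted p = 0.43 and 0.501).

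BAT2, the cytosolic branched-chain aminotransferase, which is known for the first step of branched-chain amino acid breakdown, was the only one of the 33 genes called higher in any of these comparisons within a yeast. In LS its ratio was 0.752, 0.713 and 0.731 on the baseline first replicates, 0.364 at 30%, 2.70 and 2.51 at 40% and 6.58 and 1.68 at 50%. Both 40% arrays and both 50% arrays lay above all 6 baseline arrays, the second replicates included (0.237 to 1.40). Its differences with all arrays, 1.80 ± 0.80 at 40% and 2.15 ± 0.80 at 50%, did not pass (adjusted p = 0.239 and 0.134). Without the 6 arrays they were 1.83 ± 0.51 and 3.17 ± 0.64 and passed (adjusted p = 0.00939 and 0.00165). In HS the ratio was 2.17 and 2.14 at 30%, 0.742 and 0.489 at 40% and 1.03 and 3.47 at 50%. There the 40% arrays lay below the whole HS baseline, and of the 50% arrays the first lay within it and the second above it. BAT1, its mitochondrial partner, which serves synthesis, went the other way in LS, from 2.58, 1.85 and 1.83 to 0.768 and 0.363 at 40% (-1.96 ± 0.70 without the 6 arrays, adjusted p = 0.0318, and -1.17 ± 1.10 with them, adjusted p = 0.614).

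Whether the yeasts responded differently was tested as the HS minus LS difference of the response. With all arrays no gene of the 33 was called at 0, 40 or 50%, where 0.655%, 0.418% and 0.491% of all probe sets were called in either direction. The counts at an unadjusted p under 0.05 in limma were 0, 1 and 0 among the 33 genes and 470, 673 and 629 among all 5498 probe sets. Without the 6 arrays 14 genes had a higher (less negative) response in HS at 40%, and BAT2 a lower one, against 14.7% of all probe sets higher and 12.8% lower. By branch the 14 were 4 of 8 arginine, 2 of 12 branched-chain and 8 of 12 aromatic genes. The largest differences were those of ARG8 (3.19 ± 0.59, adjusted p = 0.00427) and ARO8 (2.82 ± 0.62, adjusted p = 0.00839), with BAT2 at -3.08 ± 0.68 (adjusted p = 0.00829). These values rest on the HS pair at 40%, whose arrays disagreed. At 50% 2 genes were called without the 6 arrays. ARO7 was higher in HS (2.67 ± 0.48, adjusted p = 0.0066) and BAT2 lower (-2.77 ± 0.78, adjusted p = 0.0396). Called over the whole array were 6.66% higher and 6.04% lower.

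As a mean over the 7 concentrations, ARG1 and ARO7 were higher in HS than in LS, 2 of 33 against 4.06% of all probe sets, and none was lower, against 11.4%. The differences were 1.45 ± 0.45 for ARG1 (adjusted p = 0.0362) and 1.0 ± 0.33 for ARO7 (adjusted p = 0.0435). Leaving out single arrays moved the count between 0 and 10: to 10 and 7 without the first LS array at 0 and at 10%, to 4 without the first at 5 or at 50%, to 3 without the first at 20 or at 30%, and to 1 or 0 without any other LS array or any HS array. Without the 6 arrays ARG2, ARO7 and TYR1 were higher in HS and ARO2 lower, at 0.59, 0.61, 0.54 and -0.55, against 10.2% of probe sets higher and 18.7% lower. ARO7 was the one gene called in both.

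Several genes of arginine, proline and aromatic amino acid breakdown were higher in HS at 50%, where 20.7% of all probe sets were called higher. Of 7 further arginine metabolism genes 5 rose and none fell. CAR1, the arginase, had ratios of 3.33 and 7.42 at 50% against 0.328 to 0.705 (median 0.437) and rose by 3.41 ± 0.42 (adjusted p = 0.000124). CAR2, the ornithine aminotransferase, rose by 2.36 ± 0.44 (adjusted p = 0.00131). PUT1 and PUT2, the enzymes that turn proline into glutamate, rose by 2.62 ± 0.75 and 2.76 ± 0.31 (adjusted p = 0.0147 and 7.2e-05). CAR1, CAR2 and PUT2 were above their whole baseline on both arrays, whereas of the PUT1 arrays (2.55 and 9.76) the first lay within the baseline of 0.241 to 3.95 (median 0.717). The fifth was ARG82, an inositol polyphosphate kinase needed for arginine control (1.32 ± 0.38, adjusted p = 0.0154). ARG80 and ARG81, which encode subunits of the ArgR/Mcm1 complex, were not called (-0.36 ± 0.31 and -0.86 ± 0.34, adjusted p = 0.369 and 0.0597).

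Of 7 further genes of branched-chain and aromatic metabolism, 5 rose and 1 fell in HS at 50%, against 20.7% and 25.4% of all probe sets. ARO10, the decarboxylase that leads aromatic and branched-chain keto acids to fusel alcohols, had ratios of 16.9 and 57.3 at 50% against 0.248 to 0.763 (median 0.520) and rose by 6.05 ± 0.62 (adjusted p = 4.27e-05). ARO9, the aromatic aminotransferase of breakdown, had 8.04 and 6.11 against 0.418 to 1.02 (median 0.802) (3.26 ± 0.40, adjusted p = 0.000124). Its synthetic counterpart ARO8 fell in the same arrays, as given above. The decarboxylase genes PDC5 and PDC6 and the alcohol dehydrogenase gene SFA1 rose by 2.07 ± 0.34, 3.55 ± 0.53 and 2.17 ± 0.35 (adjusted p = 0.000641, 0.000376 and 0.000631). OAC1, the mitochondrial carrier that exports an intermediate of leucine synthesis, stood at 0.724 and 0.264 against 1.54 to 2.30 (median 1.65) and fell by 1.99 ± 0.40 (adjusted p = 0.00208).

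**Figure D5:**
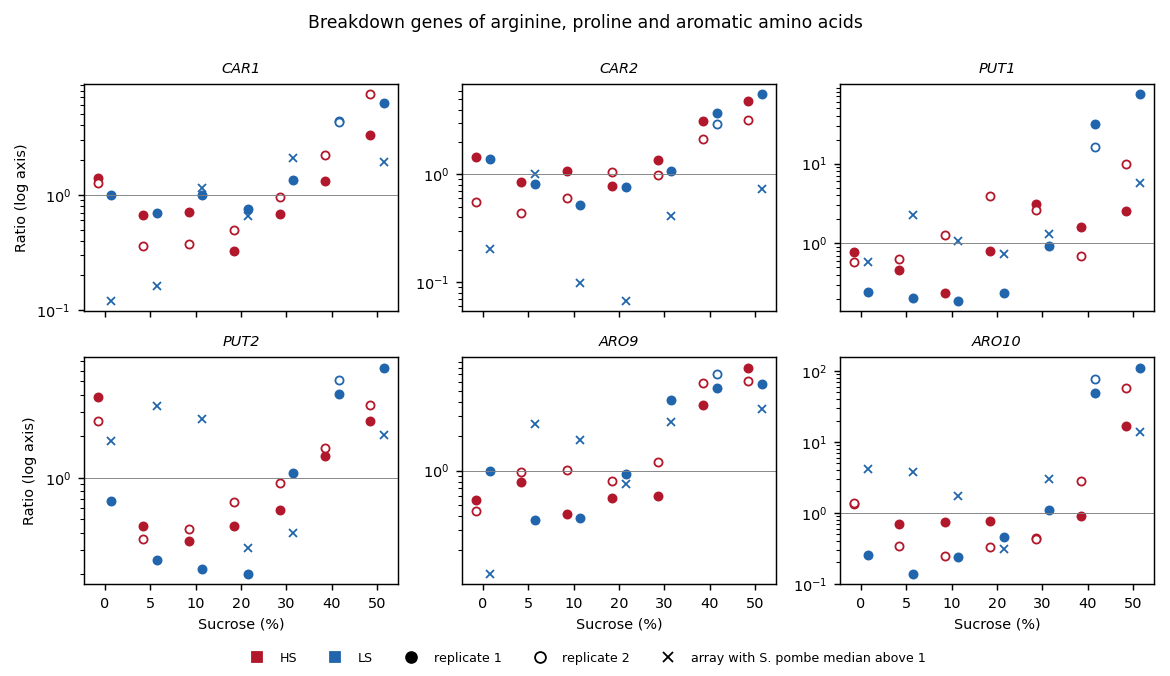
Deposited ratio (y axis, log scale) of 6 breakdown genes on each array by sucrose concentration (x axis), HS in red, LS in blue, filled circles for first and open circles for second replicates, crosses for those 6 LS arrays whose S. pombe median exceeds 1. At 50% sucrose the ratios of CAR1, CAR2, PUT2, ARO9 and ARO10 on both HS arrays and on the first LS array lie above all circles from 5 to 20% of the same yeast.

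In LS with all arrays, 1 gene of each of these lists was called higher at 40 and at 50%: PUT1 (5.49 ± 1.18 and 5.35 ± 1.18, adjusted p = 0.0231 and 0.0221) and ARO10 (6.79 ± 1.40 and 6.16 ± 1.40, adjusted p = 0.0198 and 0.0249). Over all probe sets 3.35% were called higher at 40% and 3.97% at 50%. PUT1 had ratios of 31.3 and 16.3 at 40% and 73.8 and 5.71 at 50% against 0.191 to 2.25 (median 0.482). ARO10 had 49.3 and 76.1 at 40% and 112 and 14 at 50% against 0.138 to 3.78 (median 0.377). Both genes were above the whole baseline on all 4 arrays, those with an S. pombe median above 1 included. Without the 6 arrays 5 of 7 arginine metabolism genes were called higher at 40% (ARG82, CAR1, CAR2, PUT1 and PUT2), against 22.0% of all probe sets. ARG80 was called lower there, at -3.49 ± 0.35 (adjusted p = 1.62e-05), against 31.9% of all probe sets. With all arrays the ARG80 difference was -1.44 ± 1.64 (adjusted p = 0.687) and did not pass. Of the 7 genes on the branched-chain and aromatic list, 4 were called higher and PDC5 and OAC1 lower at 40% without the 6 arrays, against the same shares. PDC5, called higher in HS at 50%, differed by -2.58 ± 0.46 in LS at 50% without the 6 arrays. Its LS first replicates stood at 2.24, 2.07 and 11.2 at 5, 10 and 20%, so the 20% array weighs most in that baseline. PDC5 then stood at 1.82 and 1.84 at 40% and at 0.624 on the first array at 50%. The HS minus LS difference of its response at 50% was 3.92 ± 0.92 with all arrays and did not pass (adjusted p = 0.0672), and without the 6 arrays 4.65 ± 0.56 (adjusted p = 0.000862).

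Histidine and lysine genes, also under general amino acid control, fell as well in HS at 50%, where 25.4% of all probe sets were called lower. All 7 histidine genes were called lower, from -1.15 (HIS3) to -3.19 (HIS7). Of 9 lysine genes 7 were called lower, led by LYS9 at -3.56 ± 0.64, LYS2 at -3.27 ± 0.47 and LYS1 at -3.18 ± 0.42 (adjusted p = 0.00114, 0.000298 and 0.000181). Without the 6 arrays the LS counts at 40% were 7 of 7 histidine and 6 of 9 lysine genes lower, against 31.9% of all probe sets, and with all arrays 0 and 0 by limma's adjusted p, with medians of -1.81 and -2.22.

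Of 14 genes that control GCN4 or its protein, 7 were called lower in HS at 50% and none higher, against 25.4% and 20.7% of all probe sets. GCN1 and GCN20, which help Gcn2 to sense uncharged tRNA, stood at 0.339 and 0.127 against 1.38 to 1.76 (median 1.67) and at 0.422 and 0.561 against 1.30 to 1.63 (median 1.53). Neither overlapped its baseline, and they fell by 2.97 ± 0.39 and 1.60 ± 0.26 (adjusted p = 0.000176 and 0.00066). GCN2 itself was not called (-0.66 ± 0.31, adjusted p = 0.107), nor was PCL5, the cyclin that marks Gcn4 for breakdown (0.023 ± 0.40, adjusted p = 0.972). GCD11, a subunit of the initiation factor that delivers the initiator tRNA, differed by -1.14 ± 0.35 and CDC4, which takes part in Gcn4 breakdown, by -1.05 ± 0.34 (adjusted p = 0.021 and 0.0256). In nitrogen assimilation GLT1, glutamate synthase, fell by 2.50 ± 0.35 and GDH3, a glutamate dehydrogenase isozyme, rose by 2.19 ± 0.64 (adjusted p = 0.000239 and 0.0159). The GDH3 ratios were 2.07 and 5.34 against 0.362 to 3.08 (median 0.598), so the first array lay within the baseline. GLN1, GDH1 and GDH2 were not called (-0.083, -0.51 and -1.05). GDH3 was also called higher in LS with all arrays, at 4.58 ± 0.91 at 40% and 4.63 ± 0.91 at 50% (adjusted p = 0.0158 and 0.0134), and without the 6 at 4.03 ± 0.70 and 5.51 ± 0.88 (adjusted p = 0.000495 and 0.000384).

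At 40% in HS, 3 of the 7 further arginine genes and 4 of the 7 further branched-chain and aromatic genes were called higher, against 8.49% of all probe sets. At 0% 2 of the 7 further arginine genes were called higher and none lower, against 13.6% and 18.7% of all probe sets. PUT2 stood at 3.86 and 2.58 against 0.348 to 0.665 (median 0.433) and rose by 2.85 ± 0.31 (adjusted p = 0.000108), and CAR1 rose by 1.51 ± 0.42 (adjusted p = 0.0186). Of the branched-chain and aromatic genes 2 were called higher and 1 lower, and ARO9 was not called (-0.57 ± 0.40, adjusted p = 0.298). Ratios were 9.37 and 3.37 for PDC6 against 0.157 to 0.299, and 3.24 and 1.53 for SFA1 against 0.552 to 0.875. ARO10 and ARO80 also lay above their whole baseline on both arrays, and PDC5 below. OAC1 stood at 0.250 and 0.253 against 1.54 to 2.30 (median 1.65) and fell by 2.79 ± 0.40 (adjusted p = 0.000498), more than any of the 33 genes at 0%. The carrier and LEU1, LEU2 and LEU9 thus lay below their whole baseline on both arrays without sucrose, while LEU3 and LEU4 overlapped theirs.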

How the data were processed

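The authors deposited 1 table of linear ratios. Per the series' design text, these ratios were made in GeneSpring v7.0 by scaling each array on positive genes other than those of S. pombe and then each gene to its own level. No source used here says how the signals behind them were summarised, so the depth of signal is unknown and the number of arrays limits the precision. The table held 10928 probe sets. GEO's platform annotation gave 1 gene symbol to 7244 of them, several to 1 and none to 3683, and 12 symbols were updated.

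The 5498 named S. cerevisiae probe sets were fitted as log2 ratios with limma 3.58.1 (R 4.3.3), with a mean for each group and no filter on low values. Comparisons within a yeast used its 14 arrays and comparisons between yeasts all 28. P-values are 2-sided and adjusted by Benjamini-Hochberg over all 5498. Isozyme pairs were compared by exact permutation (scipy 1.17.1). Per-array values are given for a preset group of genes of different roles and for the largest called rise and fall of each branch. The members, the gene lists and the setting aside of 6 arrays were chosen with earlier results of these data known. Same-numbered arrays of different groups did not deviate together in every pair (r = -0.021 to 0.43 in HS and -0.15 to 0.71 in LS, over 21 pairs of groups each, with r above 0.1 in 18 and 15), so the replicate number was not used as a pairing. ARG5,6 was not analysed here.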

Additional observations from a re-analysis of the deposited data

Results flagged for a closer look

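BAT2 is listed because, at 30 and at 40% sucrose, both HS arrays lay on one side of their baseline mean and both LS arrays on the other side of theirs. At 30% sucrose the HS minus LS difference of its log2 response was 1.38 (0.58 in HS and -0.79 in LS), and this difference was not tested. At 40% it was -3.05 (-1.25 in HS and 1.80 in LS), with a limma adjusted p of 0.129 for the difference itself.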

How the results depend on the processing

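Counts below are called genes of the 33 by limma. In HS the count at 50% (22) became 5 with all 28 arrays in 1 fit. The count at 0% (8) became 16 with the replicate block, 13 with array weights and 0 with all 28 arrays. That at 40% (3) became 6 with quantile normalization, 7 with the replicate block and 0 with all 28 arrays. In LS, where the counts were 0, leaving out the 6 arrays gave 8, 27 and 21 at 30, 40 and 50%. At 40% the replicate block gave 2, array weights 11 and all 28 arrays 4, and at 50% the replicate block gave 4 and all 28 arrays 8. The count for HS against LS (2) became 5 with quantile normalization, 1 with a variance trend, and 4 with the replicate block, with array weights and without the 6 arrays. For the difference in response, array weights gave 1 and leaving out the 6 arrays 15 at 40%, and leaving them out gave 2 at 50%. Leaving out each array in turn gave 3 to 8 in HS at 0%, 0 to 7 at 40%, 16 to 23 at 50%, 0 to 1 in LS at 50% and 0 to 10 for HS against LS, and 0 to 0 elsewhere. The 1 call in LS at 50% came without the second array at 5%. Why these counts moved was not tested beyond what each setting changes. Over all settings, 666 values of single called genes gave 569 that kept direction and call, 97 that kept direction only and 0 that reversed. Several settings leave the difference itself unchanged, so they could not reverse a direction. These were the fit on all 28 arrays, the variance trend, the replicate block and, within HS, the fit without the 6 arrays. Averaging the probe sets of a gene was another, as each gene had 1. Fits on only the compared groups were run for differences between yeasts alone, fits on all 28 arrays for comparisons within a yeast alone, and the 5% baseline not for HS against LS.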
